A study of Mus musculus with 2 samples.

Results

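Kdr, Flt1, Flt4, Nrp1, Nrp2, Vegfc, Tek and Tie1, the receptors and 1 ligand of the vascular endothelial growth factor (VEGF) and angiopoietin pathways, were followed across the cell classes of the mouse yolk sac. They were taken by gene symbol, and each symbol matched 1 row in the count tables of both libraries, so the set holds 8 of 33456 genes. The libraries came from B6 mice, 1 wild-type (WT) and 1 conditional knockout of Baf155 (CKO), which is encoded by Smarcc1 and is a core subunit of the BAF chromatin remodelling complex. For each genotype, yolk sacs of E9.5 and E10.5 embryos in equal numbers were pooled, dissociated with collagenase, frozen, and sorted for living cells without the erythroid surface marker Ter119 before droplet-based 5′ single-cell RNA sequencing. The material is named as nuclei in the labels, whereas the protocol speaks of live cells. Embryo numbers, the Cre driver and the exon removed were not given in these sources, 1 label writes KO for CKO, and no cell can be assigned to a stage.

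VEGF ligands bind receptor tyrosine kinases on endothelial cells and drive the growth of vessels. Kdr is the main signalling receptor for VEGF-A, Flt1 binds VEGF-A tightly and also exists as a soluble decoy, and Flt4 is the receptor for VEGF-C, which Vegfc encodes. Nrp1 and Nrp2 are co-receptors shared with class 3 semaphorins, Tek is the receptor for the angiopoietins, and Tie1 is its partner without a soluble ligand of its own. In the yolk sac, haemogenic endothelium carries these receptors and gives rise to erythromyeloid progenitors, which lose endothelial genes as they acquire blood genes.

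After filtering, 784 WT and 841 CKO cells were kept, with 6054 to 114332 and 6328 to 96471 UMIs (unique molecular identifiers, each 1 counted RNA molecule) per barcode. Smarcc1 stood at 94.9 CPM (counts per 1000000 UMIs; 95% interval 91.0 to 98.8) in the WT library and at 24.0 CPM (22.2 to 25.9) in the CKO library. Cells were classed by counts of marker genes that include none of the 8 members. The classes held, WT then CKO, 47 and 30 endothelium-like cells, 191 and 118 progenitor-like cells, 21 and 53 cells that passed the endothelium and the progenitor gate together (dual-gate cells below), 242 and 283 stromal-like, 159 and 251 erythroid-like, 6 and 42 megakaryocyte-like, 38 and 8 macrophage-like, and 31 and 4 endoderm-like cells. A further 3 and 7 cells passed other pairs of gates and 46 and 45 passed none. Each genotype has 1 library, so no comparison between genotypes could be tested and no p-value is given. The intervals are exact Poisson intervals for CPM, exact binomial intervals for shares of cells and conditional binomial intervals for ratios, all at 95% and all covering counting error only. Differences between embryos, sorts and libraries cannot be told apart from a difference between genotypes.

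The members lie on 5 chromosomes in GRCm38, with gene limits from GENCODE. Kdr (ENSMUSG00000062960) spans chr5:75932827-75978458 on the minus strand, and Flt1 (ENSMUSG00000029648) spans chr5:147561604-147726011 on the minus strand. Flt4 (ENSMUSG00000020357) spans chr11:49609263-49652739 on the plus strand. Nrp1 (ENSMUSG00000025810) spans chr8:128358604-128503363 and Nrp2 (ENSMUSG00000025969) chr1:62703285-62818695, both on the plus strand. Vegfc (ENSMUSG00000031520) spans chr8:54077606-54187096 on the plus strand. Tek (ENSMUSG00000006386) spans chr4:94739289-94874976 on the plus strand, and Tie1 (ENSMUSG00000033191) chr4:118471191-118490061 on the minus strand. UMIs were summed per gene, so full-length and soluble Flt1 transcripts could not be told apart.

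Sequence upstream of Kdr and Tek is shown because they were the 2 members past 2-fold higher in the CKO stromal-like cells described below. That of Flt1, a VEGF receptor of the same class as Kdr, is shown beside them. The sequences are from RefSeq on GRCm38.p6, 5′ to 3′ on the gene's strand, and end at the base before the first annotated exon base. Capitals mark GGAA, the core of the sites that ETS transcription factors bind, on either strand (TTCC on the strand shown). Kdr lies at chr5:75978459-75978705 (minus), Tek at chr4:94739039-94739288 (plus) and Flt1 at chr5:147726012-147726261 (minus).
Kdr: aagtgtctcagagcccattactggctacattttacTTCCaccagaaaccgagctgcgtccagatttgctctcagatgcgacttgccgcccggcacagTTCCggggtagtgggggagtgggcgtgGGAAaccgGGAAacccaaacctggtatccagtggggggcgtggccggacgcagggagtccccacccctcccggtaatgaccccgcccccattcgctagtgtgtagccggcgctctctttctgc
Tek: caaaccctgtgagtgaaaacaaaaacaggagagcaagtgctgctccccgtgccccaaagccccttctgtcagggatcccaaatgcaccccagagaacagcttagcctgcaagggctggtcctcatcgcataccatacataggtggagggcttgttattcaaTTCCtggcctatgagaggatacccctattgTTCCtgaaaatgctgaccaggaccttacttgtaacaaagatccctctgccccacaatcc
Flt1: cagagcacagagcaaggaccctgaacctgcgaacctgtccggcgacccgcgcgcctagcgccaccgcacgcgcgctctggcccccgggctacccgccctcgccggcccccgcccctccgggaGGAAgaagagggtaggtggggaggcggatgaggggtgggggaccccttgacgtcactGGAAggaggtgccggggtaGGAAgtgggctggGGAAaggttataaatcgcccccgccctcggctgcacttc
GGAA was found at 4 places upstream of Kdr, 2 upstream of Tek and 4 upstream of Flt1, counted over 250 bases for each gene with matches allowed to overlap. Of 32851 mouse promoters of the same length, 93.4% held at least 1 such match, 76.8% at least 2 and 33.4% at least 4. The E-box letters CANNTG were found once upstream of Kdr, at 2 places upstream of Tek and nowhere in the Flt1 window, against 66.2% of all promoters with at least 1. TATAAA was found once upstream of Flt1, as in 12.4% of all promoters, and in neither other window. A match describes letters and not a bound site.

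Among the VEGF receptors, Kdr was highest in endothelium-like cells. Its WT level was 525 CPM (474 to 581) and its CKO level 446 CPM (402 to 494), and the cells ranged from 0 through a median of 494 to 1450 CPM in WT and from 0 through 436 to 1581 CPM in CKO. The cells of the libraries overlapped over nearly the whole range. Dual-gate cells followed at 49.97 CPM (36.6 to 66.6) in WT and 98.5 CPM (85.5 to 113) in CKO. Progenitor-like cells stood at 17.1 CPM (14.3 to 20.3) and 47.8 CPM (41.8 to 54.3), and stromal-like cells at 3.38 CPM (2.04 to 5.28) and 20.4 CPM (17.2 to 24.0). Megakaryocyte-like cells held 23.8 CPM (9.58 to 49.1) in 6 WT cells and 103 CPM (85.0 to 124) in 42 CKO cells, so the CKO level there was not below that of CKO dual-gate cells beyond counting error. In erythroid-like cells, which should lack the gene, 2.52% of WT and 3.98% of CKO cells had a Kdr UMI, at median depths of 34786 and 35317 UMIs. These shares, at 0.671 and 1.06 CPM, serve below as a reference for low Kdr levels. That they are background was assumed and not measured. Globins took 29.0% of WT and 27.0% of CKO UMIs in these erythroid-like cells. No Kdr UMI was counted in endoderm-like cells (31 WT and 4 CKO), where 3 counts would make 3.64 and 28.6 CPM.

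Flt1 was also highest in endothelium-like cells and was low in the stroma. It stood at 423 CPM (377 to 473) and 307 CPM (270 to 347) in WT and CKO endothelium-like cells, with cells from 0 through 461 to 1578 CPM and from 0 through 271 to 2121 CPM. The next levels, 31.5 and 39.0 CPM in dual-gate cells and 29.6 and 35.8 CPM in progenitor-like cells, did not differ from each other beyond counting error. Among the classes with few CKO cells, Flt1 stood at 40.0 CPM (22.9 to 65.0) in 8 macrophage-like cells, against 3.22 CPM in 38 WT cells, and at 38.1 CPM on 4 UMIs in 4 endoderm-like cells. Stromal-like cells had 4.63 and 6.17 CPM, and erythroid-like cells 0 and 3 UMIs in all.

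Flt4, the VEGF-C receptor, had 88 UMIs in WT and 49 in CKO over all kept cells, and 58.0% and 65.3% of them fell in endothelium-like cells. Its level there was 70.5 CPM (52.5 to 92.7) in WT and 38.7 CPM (26.5 to 54.6) in CKO. Every other named class was below 10 CPM in both libraries. Vegfc itself was spread over more classes. It stood at 26.3 CPM (15.8 to 41.0) and 10.9 CPM (4.97 to 20.6) in endothelium-like cells, at 20.6 and 34.3 CPM in dual-gate cells, at 4.51 and 24.4 CPM in progenitor-like cells and at 6.58 and 8.47 CPM in the stroma. Erythroid-like cells had 0 WT and 6 CKO Vegfc UMIs.

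The neuropilins were shared between endothelium and stroma. Nrp1 stood at 358 CPM (316 to 404) and 272 CPM (238 to 310) in endothelium-like cells and at 380 CPM (365 to 397) and 448 CPM (433 to 464) in stromal-like cells. Stromal-like cells held 82.3% of all WT and 89.5% of all CKO Nrp1 UMIs. Macrophage-like cells were the only other named class above 50 CPM, at 83.7 CPM (68.4 to 101) in 38 WT cells and 20.02 CPM (8.64 to 39.4) in 8 CKO cells. Nrp2 stood at 282 and 300 CPM (endothelium-like), 306 and 195 CPM (stromal-like) and 47.3 and 47.6 CPM (endoderm-like). Nrp1 and Nrp2 UMIs were seen together in 93.6% of WT and 96.7% of CKO endothelium-like cells but in 1 of 21 WT and 3 of 53 CKO dual-gate cells, whose median depths were higher.

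The angiopoietin receptors differed in the stroma. Tek stood at 123 CPM (98.8 to 151) and 135 CPM (111 to 163) in endothelium-like cells, with cells from 0 through 65.9 to 624 CPM in WT and from 0 through 101 to 572 CPM in CKO. It was at 13.03 and 25.2 CPM in dual-gate cells, at 4.38 and 4.75 CPM in progenitor-like cells and at 10.7 and 30.4 CPM in stromal-like cells. Tie1 stood at 152 CPM (125 to 183) and 137 CPM (113 to 164) in endothelium-like cells, at 38.0 and 108 CPM in dual-gate cells and at 12.1 and 39.3 CPM in progenitor-like cells. In the stroma Tie1 had 0 UMIs among 242 WT cells and 7 among 283 CKO cells, a CKO level of 1.00 CPM that lies at the 1.06 CPM of CKO erythroid-like cells. The levels of all 8 members are drawn by class and library.

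**Figure D1:**
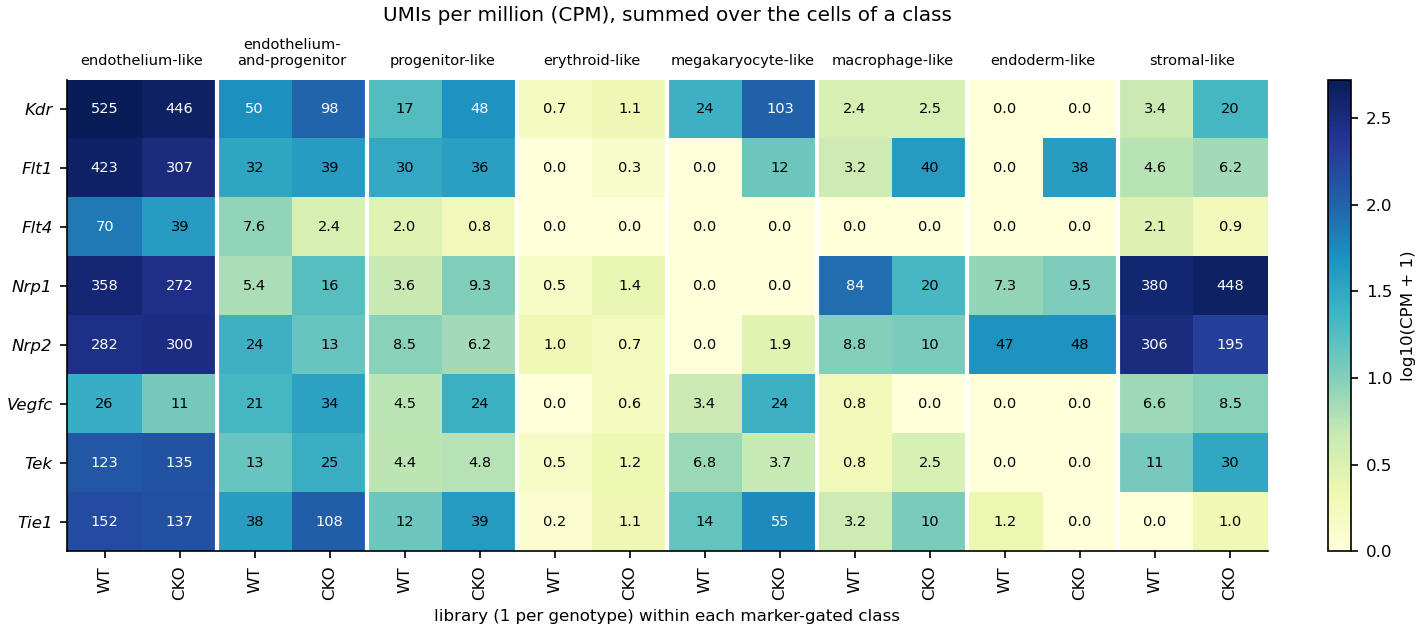
CPM of each member (rows) in each marker-gated class and library (columns), summed over cells; the colour is log10(CPM + 1) and each box prints its CPM. Levels are to be read along a row: endothelium-like cells are the highest class for Kdr, Flt1, Flt4, Tek and Tie1 in both libraries, and stromal-like cells are at or above them for Nrp1.

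In endothelium-like cells, 7 of the 8 members were within 2-fold between the libraries. None of the 8 was 2-fold higher in CKO, where 3.95% of the 6652 genes with at least 20 UMIs were, and 1 of the 8, Vegfc, was 2-fold lower, where 6.72% of those genes were. Vegfc rested on 19 and 9 UMIs (2.41-fold lower, 1.04 to 6.06). Flt4 was 1.82-fold lower (1.15 to 2.93), Flt1 1.38-fold lower (1.16 to 1.63), Nrp1 1.32-fold lower (1.10 to 1.58) and Kdr 1.18-fold lower (1.02 to 1.36). The ratio of CKO over WT was 1.10 for Tek (0.826 to 1.47), 1.06 for Nrp2 (0.880 to 1.29) and 0.898 for Tie1 (0.685 to 1.18). The median log2 ratio of the 8 members was -0.32, beside -0.03 over all 6652 genes. All 15 endothelium markers were detected in both libraries, summing to 9185 CPM in WT and 8740 CPM in CKO, with Emcn 2.75-fold lower in CKO. Depth also differed, with a median of 13162 UMIs per WT cell and 25335.5 per CKO cell. Among cells of 15000 to 60000 UMIs (20 WT and 27 CKO), the log2 ratio of Flt1 was 0.08 and that of Tie1 0.17, against -0.46 and -0.15 over all cells. Over all CKO cells, 48 Flt1 UMIs came from 1 cell, and without the highest cell of each library the log2 ratio of Flt1 was -0.66. Split by sex, Kdr levels were 468 and 496 CPM among Xist-positive cells (15 WT and 18 CKO), against 653 and 357 CPM among Y-positive cells (18 WT and 10 CKO), which had UMIs of Y-linked genes and none of Xist. Flt4 stood at 18.3 and 36.1 CPM in Xist-positive and 117 and 43.7 CPM in Y-positive cells, Flt1 at 310.5 and 285 against 550.2 and 349.8 CPM, and Nrp1 at 332 and 228 against 289.8 and 349.8 CPM. In the same order, Tek stood at 113 and 169 against 117 and 69.2 CPM. Nrp2 stood at 263 and 359 against 279 and 200 CPM, and Tie1 at 146 and 116 against 143 and 175 CPM. The CPM of Vegfc was higher in WT among Xist-positive cells (10 and 5 UMIs) and higher in CKO among Y-positive cells (1 and 3 UMIs). Which library was higher therefore differed between the sexes for every member but Flt1. The numbers of cells were under the 20 per library set for a comparison. Sums of markers of other types also differed, given as WT then CKO. Stromal markers summed to 48.4 and 224 CPM (3 of 16 measured, all 2-fold higher). Endoderm markers summed to 89.8 and 16.9 CPM (2 of 13 measured, both 2-fold lower). Trophoblast markers stood at 293 and 76.1 CPM with 1 of 6 measured. All their WT UMIs were of Plac1, as the other 5 genes had none. Neural markers stood at 101 and 19.3 CPM with 1 of 4 measured, and Tubb3 and Sox2 had no UMIs in either library. The part of depth, sex and these markers in the members' levels was not tested. In single cells the median number of members seen was 6 of 8 in WT and 7 of 8 in CKO.

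Progenitor-like cells of the CKO library carried more Kdr, Vegfc, Tie1 and Nrp1. Of the 7 members with at least 20 UMIs, 4 were 2-fold higher and 0 were 2-fold lower, where 7.83% and 3.92% of 10256 genes were. Vegfc was 5.41-fold higher (3.67 to 8.17; 34 and 118 UMIs), Tie1 3.25-fold higher (2.52 to 4.22), Kdr 2.79-fold higher (2.24 to 3.49) and Nrp1 2.60-fold higher (1.58 to 4.35). Flt1 (1.21; 0.985 to 1.48), Tek (1.09; 0.609 to 1.91) and Nrp2 (0.730; 0.457 to 1.14) had ratios of CKO over WT whose intervals included 1. The median log2 ratio of the 7 was 1.26, beside 0.04 over all genes. The cells ranged from 0 through a median of 0 to 490 CPM of Kdr in WT and from 0 through 21.7 to 511 CPM in CKO, and for Tie1 from 0 through 0 to 198 CPM and from 0 through 30.8 to 395 CPM. The ranges overlapped, and the CKO medians of both genes were above the WT medians of 0. A Tie1 UMI was present in 36.6% of WT and 72.9% of CKO cells, and in 6.81% and 14.4% after each cell was thinned to 6000 UMIs. Kdr and Tie1 UMIs were seen together in 36 of 191 WT and 56 of 118 CKO cells.

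These differences did not run through all CKO progenitor-like cells. In a joint clustering of both libraries that left the members out, 134 WT and 31 CKO progenitor-like cells fell in the same cluster (cluster 3). A further 51 WT and 5 CKO cells fell in cluster 5, and 76 CKO cells in cluster 15, which holds 1 WT cell of the class. Cluster 5 showed 3 megakaryocyte and 3 progenitor markers and was named megakaryocyte-like in the clustering. Gp1bb and Gp5 UMIs were seen in 47.1% and 49.0% of those 51 WT cells. Cluster 15 showed 5 endothelium, 7 progenitor and 3 megakaryocyte markers and was named endothelium-and-progenitor in the clustering. Its 76 CKO cells here are progenitor-like by the gates alone. Within cluster 3, Kdr stood at 20.2 CPM (16.5 to 24.4) in WT and 12.97 CPM (8.22 to 19.5) in CKO, Tie1 at 13.5 and 15.2 CPM, and Vegfc at 5.89 and 3.95 CPM. No member measured there was 2-fold higher in CKO. The clustering made no correction between libraries, so CKO cells that share a cluster with WT cells are picked for likeness to them. Values within cluster 3 therefore cannot speak for the other CKO cells. The 76 CKO cells of cluster 15 stood at 69.4 CPM of Kdr (59.7 to 80.3), 59.8 CPM of Tie1 (50.8 to 70.0), 40.7 CPM of Vegfc (33.3 to 49.2) and 13.04 CPM of Nrp1 (9.03 to 18.2). With classes taken from the clusters, the log2 ratio was -0.71 for Kdr, -0.80 for Vegfc and -0.10 for Tie1, against 1.48, 2.44 and 1.70 with the gates. Neither cluster 15 nor cluster 5 was then counted as progenitor-like, and 20 WT dual-gate cells of cluster 3 were. Kdr stood at 11.0 CPM in the 51 WT cells lost with cluster 5 and at 45.5 CPM in those 20 WT cells. The WT side of the ratio therefore changed as well. In cluster 3, Flt1 was at 41.3 CPM (36.0 to 47.1) among WT cells and at 31.0 CPM among CKO cells, and it was at 44.5 CPM in CKO cells of cluster 15 and at 1.44 CPM in WT cells of cluster 5. Its interval in cluster 15 overlapped that of WT cluster 3.

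Smarcc1 also differed between these groups of CKO cells. It was not among the genes kept out of the clustering, so the clusters may not be independent of it. All 31 CKO cells of cluster 3 had a Smarcc1 UMI, at 91.4 CPM, while 36.8% of the 76 cells of cluster 15 had one, at 12.7 CPM, with median depths of 57589 and 30224 UMIs. WT cells of cluster 3 stood at 133 CPM of Smarcc1. Over all CKO progenitor-like cells, the 53 cells without a Smarcc1 UMI held 78.2 CPM of Kdr, 61.8 CPM of Tie1 and 40.2 CPM of Vegfc, and the 65 cells with one held 30.3, 26.4 and 15.3 CPM, where all WT progenitor-like cells held 17.1, 12.1 and 4.51 CPM. The part of depth in this split was not tested.

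**Figure D2:**
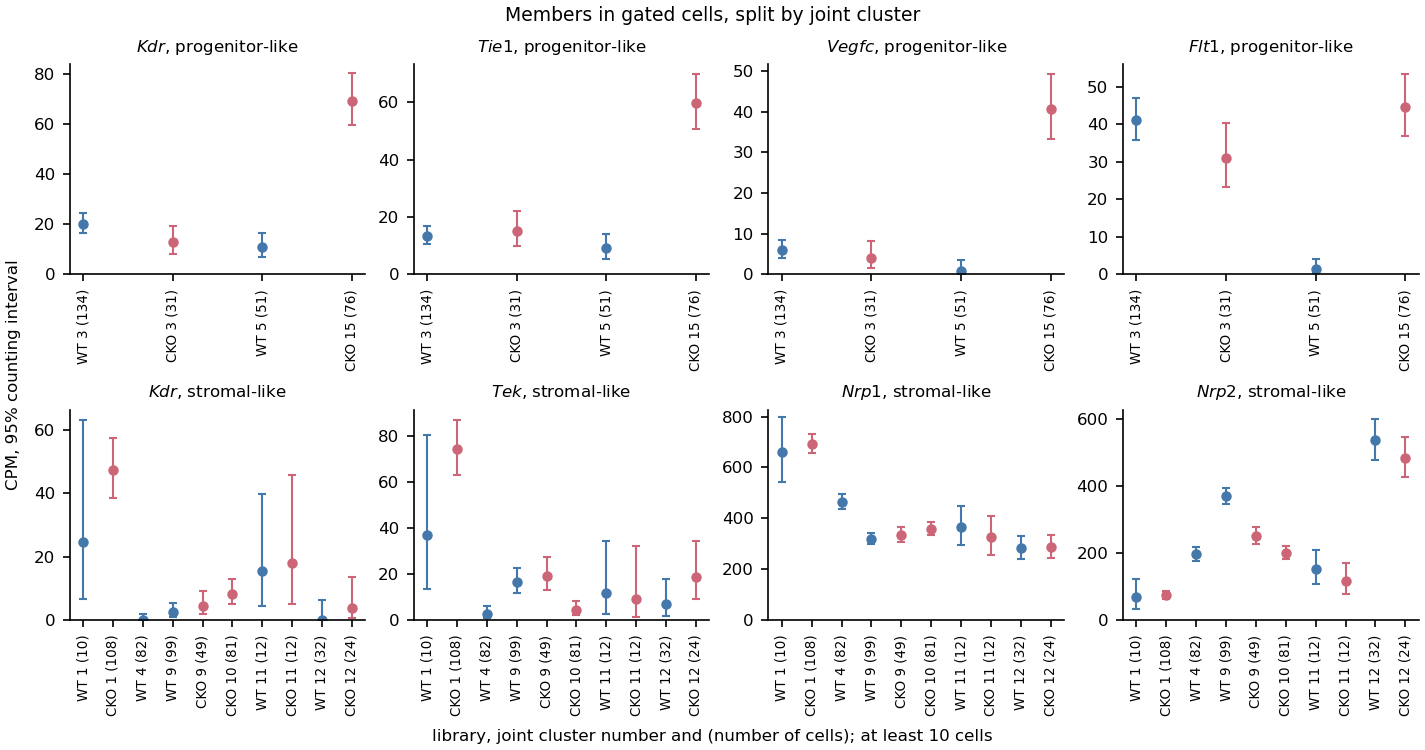
CPM with 95% counting intervals of 4 members in progenitor-like cells (top) and 4 in stromal-like cells (bottom), split by library (WT blue, CKO red) and joint cluster, with the number of cells in parentheses. The CKO cells of cluster 15 stand above the other progenitor-like cells for Kdr, Tie1 and Vegfc, while for Flt1 their interval overlaps that of WT cluster 3, and cluster 1 is the highest stromal cluster for Kdr, Tek and Nrp1 and the lowest for Nrp2.

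In dual-gate cells, 2 of the 7 measured members were 2-fold higher in CKO and 0 were 2-fold lower, where 8.94% and 5.26% of 7853 genes were. Tie1 was 2.85-fold higher (1.99 to 4.198), with cells from 0 through 36.7 to 315 CPM in WT and from 0 through 118 to 319 CPM in CKO. Nrp1 was 2.98-fold higher (1.16 to 9.76) on 5 and 34 UMIs, and its log2 ratio turned to -0.92 when each gate asked for 1 marker fewer. Kdr (1.97-fold; 1.43 to 2.78), Tek (1.93-fold; 1.02 to 3.98) and Vegfc (1.66-fold; 0.990 to 2.91) had ratios above 1 but under 2-fold, with the Vegfc interval including 1, and Nrp2 was 1.86-fold lower (1.01 to 3.39). The median log2 ratio of the 7 was 0.93, beside -0.05 over all genes. Here too the libraries drew on different clusters, since 20 of the 21 WT cells were in cluster 3 and 51 of the 53 CKO cells in cluster 15. A comparison within 1 cluster was therefore not possible for this class. Kdr passed 2-fold (log2 ratio 1.02) among cells of 15000 to 60000 UMIs, and Tek (1.21) in CKO cells without a Smarcc1 UMI. Endothelium markers summed to 862 CPM in WT and 1489 CPM in CKO dual-gate cells, megakaryocyte markers to 267 and 818 CPM, and stromal markers to 53.2 and 103 CPM (5 of 6 measured 2-fold higher). Their part in the members' levels was not tested.

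Progenitor-like and dual-gate cells were also pooled and divided by the number of endothelium markers in a cell, counting those with at least 2 UMIs. With 0 or 1 marker (102 WT and 25 CKO cells), Tie1 stood at 6.45 and 25.5 CPM. Vegfc stood at 1.68 and 11.8 CPM there, on 6 and 12 UMIs, fewer than the 20 asked of a measured gene. Kdr at 11.5 and 17.6 CPM had a ratio of 1.53 (0.830 to 2.73). With 3 or 4 markers (47 and 59 cells), Kdr stood at 26.5 and 63.3 CPM, Tie1 at 20.4 and 54.0 CPM and Vegfc at 10.4 and 31.9 CPM. Median depths were 35421.5 UMIs in WT and 37126 in CKO with 0 or 1 marker, but 47003 and 31727 with 3 or 4. Tie1 was at least 2-fold higher in CKO at each of the 4 marker numbers, and Flt1 at none of them, although its ratio with 0 or 1 marker was 1.75 (1.11 to 2.71). Both Kdr and Tie1 were higher in cells with more endothelium markers in both libraries. In progenitor-like cells, endothelium markers summed to 287 CPM (WT) and 472 CPM (CKO), with Ecscr 9.28-fold higher, megakaryocyte markers to 252 and 576 CPM, and stromal markers to 25.7 and 106 CPM (6 of 7 measured 2-fold higher). The part of these markers and of depth in the members' levels was not tested.

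**Figure D3:**
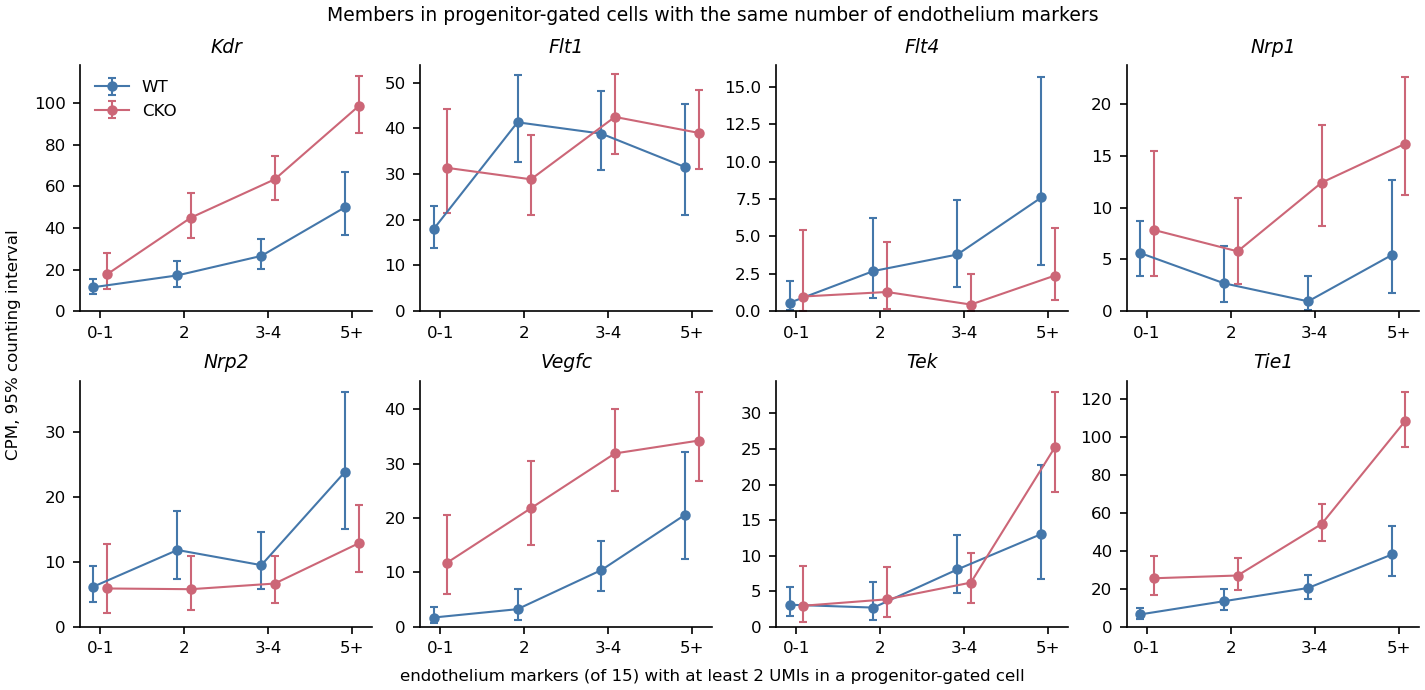
CPM with 95% counting intervals of each member in progenitor-gated cells (progenitor-like and dual-gate) against the number of the 15 endothelium markers a cell shows, WT in blue and CKO in red. Tie1 and Vegfc are higher in CKO at each marker number, but the intervals overlap for Tie1 at 2 markers and for Vegfc at 5 or more. With 0 or 1 marker, Vegfc rests on 6 WT and 12 CKO UMIs. The Flt1 intervals of the libraries overlap at each number.

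Stromal-like cells of the CKO library carried more Kdr and Tek. These were the 2 of 6 measured members past 2-fold higher, and 0 were 2-fold lower, where 6.59% and 3.5% of 11123 genes were. The median log2 ratio of the 6 was 0.36. Kdr was 6.03-fold higher (3.72 to 10.3), from 19 UMIs in WT to 142 in CKO, and Tek 2.85-fold higher (2.13 to 3.86), from 60 to 212 UMIs. A Kdr UMI was present in 6.20% of WT and 26.9% of CKO cells (3.31% and 12.4% after thinning to 6000 UMIs), at median depths of 22593.5 and 21994 UMIs. The erythroid-like shares given above were 2.52% and 3.98%. The highest single cell reached 223 CPM in WT and 738 CPM in CKO, and the median cell had none in either library. Kdr and Tek UMIs were seen together in 5 of 242 WT and 47 of 283 CKO cells. Nrp1 was 1.18-fold higher (1.11 to 1.25) and Nrp2 1.57-fold lower (1.46 to 1.68) in CKO, while Flt1 (1.33; 0.802 to 2.26) and Vegfc (1.29; 0.839 to 1.997) had ratios whose intervals included 1. Of the 26 WT Flt1 UMIs, 14 came from 1 cell. Without the highest cell of each library the Flt1 ratio was 2.22 (1.12 to 4.73) on 12 and 33 UMIs, while in CKO cells without a Smarcc1 UMI its log2 ratio was -0.89, so no direction is given for Flt1 here. The log2 ratio of Vegfc was 1.12 in Xist-positive and -0.38 in Y-positive cells.

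Most of the Kdr and Tek UMIs of the CKO stroma, 99 of 142 and 156 of 212, came from cluster 1. Cluster 1 held 10 WT and 108 CKO stromal-like cells, cluster 10 held 1 and 81, cluster 4 held 82 and 1, and clusters 9 and 12 held 99 and 49 and 32 and 24. In the 108 CKO cells of cluster 1, Kdr stood at 47.3 CPM (38.4 to 57.6) and Tek at 74.5 CPM (63.3 to 87.2), and in its 10 WT cells at 24.7 CPM (6.74 to 63.3) and 37.1 CPM (13.6 to 80.7). The WT intervals include the CKO levels. In cluster 9, Kdr stood at 2.43 and 4.50 CPM on 6 and 7 UMIs and Tek at 16.6 and 19.3 CPM (ratio 1.16; 0.701 to 1.91). In cluster 12 Kdr had 0 and 2 UMIs and Tek 4 and 10. Over the cells of these 2 clusters together (131 WT and 73 CKO), 0 members with at least 20 UMIs were 2-fold higher, and the log2 ratio of Tek was 0.37 against 1.51 over all stromal-like cells. Kdr had 15 UMIs there in all and was not counted (ratio 2.19; 0.695 to 7.47). As in cluster 3, CKO cells that share clusters with WT cells are picked for likeness to them. CKO cells of cluster 10 had 8.30 CPM of Kdr and 4.37 CPM of Tek, and WT cells of cluster 4 had 0 Kdr UMIs and 2.56 CPM of Tek. Cluster 1 was also the highest for Nrp1, at 661 and 693 CPM, and the lowest for Nrp2, at 68.0 and 73.1 CPM, in WT and CKO cells alike.

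Among the stromal markers, the CKO cells of cluster 1 had 5258 CPM of Col1a1, 2648 CPM of Postn and 304 CPM of Upk3b, and its 10 WT cells 6013, 2806 and 414 CPM. Lum (2966 against 6427 CPM), Dcn (796 against 2120 CPM) and Pdgfra (39.7 against 86.5 CPM) were over 2-fold lower in the CKO cells of this cluster, while Pdgfrb stood at 30.6 against 18.5 CPM. The 15 endothelium markers summed to 342 CPM in WT and 288 CPM in CKO stromal-like cells, with Cdh5 and Robo4 at 0 in WT and Emcn at 0 in CKO. Of the 8 measured, Pecam1 (1.42 and 8.18 CPM) and Ramp2 (24.2 and 49.8 CPM) were 2-fold higher in CKO, and Eng and Clec14a were 2-fold lower. In the CKO cells of cluster 1, Pecam1 stood at 13.9 CPM and Cdh5 at 0.955 CPM, and Emcn was at 0. The sums of other lists were higher in CKO stroma, at 17.8 and 62.3 CPM for progenitor markers, 5.87 and 34.0 CPM for megakaryocyte markers and 9.08 and 37.6 CPM for erythroid markers. Globins took 0.0337% of WT and 0.236% of CKO stromal UMIs. The part of these markers and of free RNA in the members' levels was not tested. Split by the mesothelial genes Upk3b and Upk1b, Kdr was 6.73-fold higher (3.36 to 15.3) in cells with either gene and 5.40-fold higher (2.76 to 11.8) in cells with neither. Tek was 2.71-fold (1.93 to 3.87) and 3.27-fold higher (1.84 to 6.20). Flt1 had 1 WT and 28 CKO UMIs (0.302 and 6.82 CPM) with either gene and 25 and 15 UMIs (10.9 and 5.24 CPM) with neither, where the WT level without the cell of 14 UMIs was 4.82 CPM (2.41 to 8.63). By Smarcc1, CKO stromal-like cells held 21.9 CPM of Kdr and 34.8 CPM of Tek in 175 cells without a Smarcc1 UMI, and 18.3 and 24.4 CPM in 108 cells with one.

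**Figure D4:**
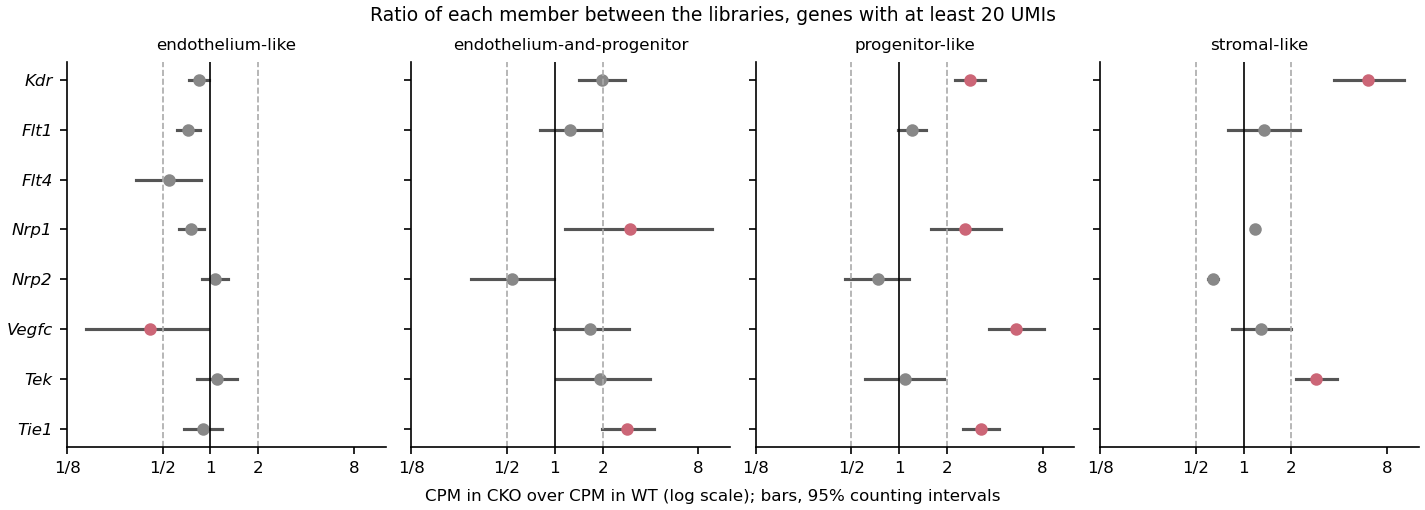
CPM in CKO over CPM in WT for the members with at least 20 UMIs in each compared class, on a log scale with 95% counting intervals; red points are past 2-fold and dashed lines mark 2-fold. Kdr is near 1 in endothelium-like cells and above 1 in the other 3 classes, where it reaches 6.03 in stromal-like cells.

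The ligands of these receptors came from different classes. Vegfa, the main ligand of Kdr, was highest in the stroma at 26.7 CPM (22.6 to 31.3) in WT and 41.4 CPM (36.7 to 46.4) in CKO, a 1.55-fold difference (1.27 to 1.90), and stood at 24.3 CPM in WT endoderm-like cells. Pgf, a ligand of Flt1, was above 3 CPM in the stroma alone, at 21.9 and 27.9 CPM. Vegfb, a further ligand of Flt1, was at 39.3 and 21.3 CPM in WT and CKO progenitor-like cells (1.84-fold lower). Its CPM was lower in CKO in every named class, among them endothelium-like (33.2 and 16.9), dual-gate (42.4 and 22.8) and stromal-like cells (31.0 and 24.4). The highest Vegfb level was 55.8 CPM in WT endoderm-like cells. Figf, which encodes VEGF-D, had at most 5 UMIs in any class of either library. Angpt1, the activating ligand of Tek, was highest in dual-gate cells at 72.8 CPM (56.4 to 92.4) in WT and 45.2 CPM (36.6 to 55.3) in CKO, with 25.5 and 33.1 CPM in progenitor-like and 19.6 and 14.4 CPM in stromal-like cells. It had 1 UMI in each library's endothelium-like cells, where Tek was highest. Angpt2, which can block Tek, was highest in endothelium-like cells at 20.7 and 14.5 CPM, and Angpt4 was found almost wholly in the stroma at 30.6 and 31.4 CPM.

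**Figure D5:**
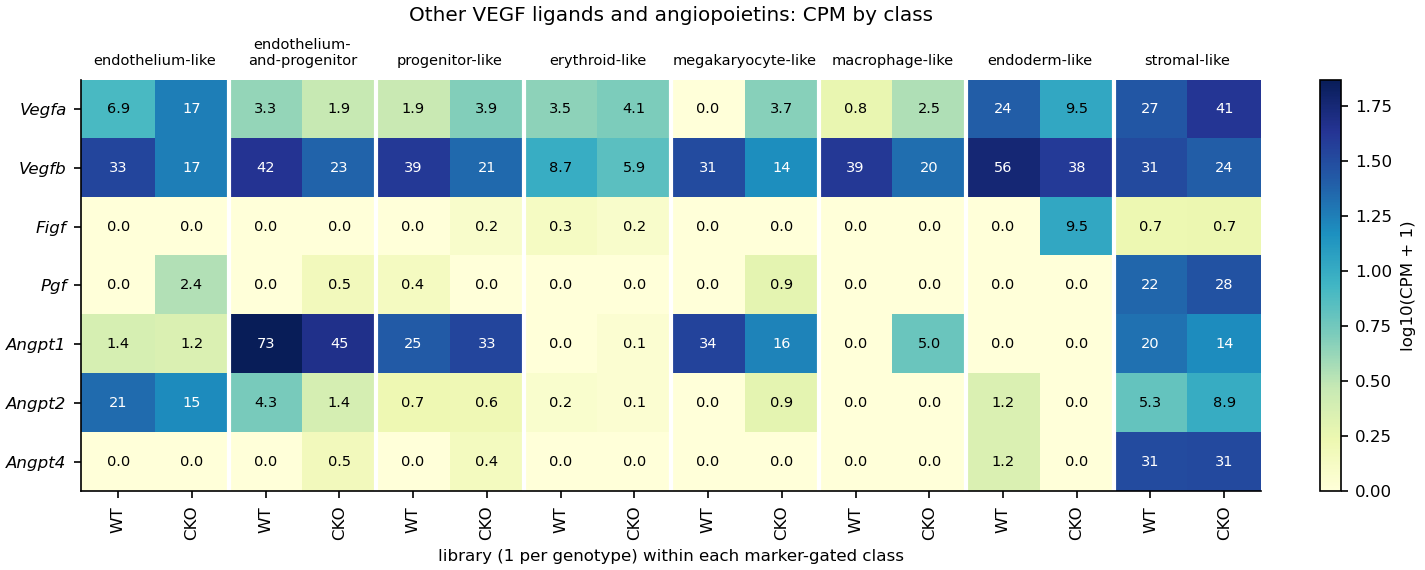
CPM of the other VEGF ligands and the angiopoietins (rows) by class and library (columns); the colour is log10(CPM + 1). Along its row, Angpt1 is highest in dual-gate cells, Angpt2 in endothelium-like cells, and Vegfa, Pgf and Angpt4 are highest in 1 or both stromal-like columns.

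The other pathway genes were counted from lists of partners, signalling proteins, targets and transcription factors. In endothelium-like cells, 0 of the 15 measured signalling genes and 0 of the 15 measured transcription factors of endothelial receptor genes were past 2-fold in either direction. Over all genes, 3.95% were 2-fold higher and 6.72% lower there. Of 8 measured targets 1 was lower, of 6 receptor partners 1 and of 3 neuropilin ligands and plexins 1. These were Plaur (19 and 5 UMIs), Itgb3 (15 and 6) and Plxna2 (16 and 7), which fall under the 100 UMIs asked of named list genes and were chosen after their values were seen. In progenitor-like cells, where 7.83% of all genes were 2-fold higher and 3.92% lower, 2 of 12 measured transcription factors were 2-fold higher and 0 lower. These were Sox17, from 1.46 to 24.0 CPM, and Ets1, from 2.65 to 19.8 CPM, factors known to act at endothelial genes. In dual-gate cells, where these shares were 8.94% and 5.26%, the same 2 were past 2-fold, of 12 measured, with Sox17 at 5.43 CPM (5 UMIs) in WT and 122 CPM (256 UMIs) in CKO and Ets1 at 18.5 and 59.5 CPM. Among receptor partners, Itgb3, an integrin subunit that is also on the megakaryocyte marker list, stood at 69.2 and 168 CPM in progenitor-like and 44.5 and 149 CPM in dual-gate cells. The semaphorin receptor Plxnd1 stood at 8.76 and 25.4 CPM and at 18.5 and 54.7 CPM in the same classes. As for the members, 76 of 118 CKO progenitor-like and 51 of 53 CKO dual-gate cells were in cluster 15. Among progenitor-like cells, Itgb3 stood at 72.6 (WT) and 65.4 CPM (CKO) in cluster 3 and at 211 CPM in CKO cells of cluster 15. Sox17, Ets1 and Plxnd1 were not split by cluster. Of 19 measured signalling genes in progenitor-like cells 3 were 2-fold higher and 0 lower, and of 16 in dual-gate cells 2 were higher, among them Prkca, and 2 lower, Grb2 and Dok2.

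In the stroma, 4 of 7 measured genes of the target list were 2-fold higher in CKO and 1 was lower, where 6.59% and 3.5% of all genes were. The median log2 ratio of the 7 was 1.67 beside -0.01 over all 11123 genes, and 0.84 when 5 CPM in place of 0.5 CPM was added to each level. Nr4a1, an immediate early gene, went from 10.7 to 53.4 CPM, and Dusp5, a phosphatase of ERK, from 7.83 to 28.9 CPM. Adamts1, a secreted protease, went from 17.8 to 57.7 CPM. VEGF signalling was not measured, and the part of tissue dissociation in these levels was not tested. Genes of the neuropilin ligand and plexin list were 2-fold higher in 4 of 8 measured cases and lower in 0, with a median of 1.01, or 0.49 with 5 CPM added. Among them Sema3e, a ligand of Plxnd1, went from 2.85 to 19.7 CPM and Plxna4 from 2.49 to 16.7 CPM. Efnb2 was 6.39-fold higher (3.58 to 12.4) and Akt1 2.04-fold lower. Of 13 measured transcription factors, 4 were 2-fold higher (Etv2, Tal1, Lmo2 and Hhex, each on at most 12 WT and 37 CKO UMIs) and 2 were lower, Elk3 and the venous factor Nr2f2 (2.08-fold). Among these factors all but Nr2f2 fall under 100 UMIs and were chosen after their values were seen. As these are the same cells, the cluster make-up given for Kdr and Tek applies to them, and these genes were not split by cluster. The higher sums of progenitor, megakaryocyte and erythroid markers in CKO stroma apply as well. In cluster 3 lay 1 CKO stromal-like cell, with 9 progenitor markers and 79234 UMIs. The part of such markers and of this cell in the list genes' levels was not tested.

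Genes whose levels ran most like a member were ranked by Pearson r of log2(CPM + 1) over the 13 class-by-library sums with at least 20 cells, among 12081 genes, as a description without a test. The points share libraries and depths. Kdr was nearest to Arap3 (r = 0.97), Pecam1 (0.96, an endothelium marker of the gates) and Lrp11 (0.95), and Flt1 to Igfbp7, Eng (an endothelium marker) and Arap3 (each 0.97). Flt4 was nearest to Hmcn1 (0.997), Notch4 and Gimap4 (each 0.98). Nrp1 was nearest to Anxa2 (0.99), and Nrp2 to Lats2 and Gpr124 (each 0.98). Tie1 was nearest to Esam (0.98, an endothelium marker), and Tek to Gm10638, Plvap (an endothelium marker) and Armcx6 (each 0.96). Vegfc was nearest to Csnk1a1, Pear1 and Tbc1d7 (each 0.95). With 5 CPM added in place of 1, Lrp11, Eng, Notch4, Gm10638, Armcx6, Csnk1a1 and Pear1 were no longer among the first 3. The other genes named here as nearest to a member stayed among them. Between members, r was 0.95 for Kdr and Flt1, 0.92 for Kdr and Tie1, 0.89 for Nrp1 and Nrp2, and 0.06 for Nrp1 and Tie1.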

How the data were processed

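UMI counts per gene and barcode were analysed as deposited by the authors, who made them with Cell Ranger on GRCm38 and also name Seurat, per the submitters' processing notes; no versions were given there. Of 815 WT and 865 CKO barcodes, barcodes under 500 genes or over 10% mitochondrial UMIs (28 and 18) were dropped, and 3 and 6 doublets called by Scrublet (expected share 1%) were left out. The libraries shared 1 barcode. The members and all lists were chosen with earlier results of these data known.

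A marker counted with at least 2 UMIs in a cell. Gates asked for 5 of 15 endothelium, 3 of 13 progenitor, 5 of 14 erythroid, 7 of 12 megakaryocyte, 6 of 11 macrophage, 5 of 13 endoderm or 6 of 16 stromal markers, and endothelium-like cells outside the progenitor gate needed 9 endothelium markers. UMIs were summed per class and library and given as CPM. A gene counted as measured when the libraries held 20 or more of its UMIs in all, and 0.5 CPM was added for median log2 ratios. The joint clustering (Leiden, resolution 1) used 2000 variable genes without the members, 30 components and 15 neighbours. Smarcc1 was not kept out of it, and no correction between libraries was made. Named genes were the 8 members, the ligands, the 3 genes most like each member, and list genes with at least 100 UMIs that were past 2-fold. Scripts were tested on simulated data. Gate strictness, clustering, doublets, mitochondrial share, globin, per-cell means, UMI minimum, Smarcc1 status and sex were varied, and a depth range, shared clusters and leaving out each gene's highest cell were added after seeing the data. The tools were matplotlib 3.10.9, igraph 0.11.9, scanpy 1.11.5 with anndata 0.12.19, pandas 2.3.3, scipy 1.17.1 and numpy 2.4.6 under Python 3.11.15.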

Additional observations from a re-analysis of the deposited data

Results flagged for a closer look

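Kdr moved in opposite directions between classes. Its ratio of CKO over WT was 0.849 (0.734 to 0.983, counting error only) in endothelium-like cells. Against this stood 1.97 in cells that passed the endothelium and progenitor gates together, 2.79 in progenitor-like cells and 6.03 in stromal-like cells. Nrp1 had a ratio of 0.76 in endothelium-like cells, against 2.98, 2.6 and 1.18 in the same 3 classes. The 2.98 rested on 5 WT UMIs, and its log2 ratio turned to -0.92 with 1 marker fewer per gate. Vegfc had a ratio of 0.414 in endothelium-like cells and 5.41 in progenitor-like cells. Within cluster 3, the cluster that held most WT progenitor-like cells, the ratio was 0.644 for Kdr and 0.670 for Vegfc, and with classes from joint clustering the log2 ratios were -0.71 and -0.80. In Xist-positive endothelium-like cells (15 WT and 18 CKO), Kdr levels were 468 and 496 CPM. In Y-positive ones (18 WT and 10 CKO) they were 653 and 357 CPM. Which library was higher in endothelium-like cells also differed between the sexes for Nrp1 and Vegfc. With 1 library per genotype these differences between classes were not tested.

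Cells that passed no gate entered no comparison. The 45 such CKO cells held 87.0 CPM of Kdr, 42.3 CPM of Vegfc, 21.7 CPM of Tek and 92.7 CPM of Tie1, and the 46 such WT cells held 17.6, 11.0, 5.51 and 4.41 CPM. Of the 45 CKO cells, 26 lay in cluster 15 and 11 showed at least 5 endothelium markers.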

How the results depend on the processing

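Counts of members past 2-fold did not change with doublets kept, at most 5% mitochondrial UMIs or globin left out (8 of 8 counts each), nor in the 4 that Y-positive cells allowed. In cells of 15000 to 60000 UMIs 7 of 8 counts were as reported, and without each gene's highest cell 6 of 8. In endothelium-like cells the 1 lower member became 0 with 1 marker fewer per gate, with means of per-cell CPM and with at least 100 UMIs, and 2 in CKO cells with 0 Smarcc1 UMIs. In dual-gate cells the 2 higher became 1 with at least 100 UMIs and 3 in the depth range (Kdr), without the highest cell (Kdr) or in CKO cells with 0 Smarcc1 UMIs (Tek), and the 0 lower became 1 with per-cell means, no UMI minimum or CKO cells with 0 Smarcc1 UMIs. In progenitor-like cells the 4 higher became 1 with classes from joint clustering, 0 within shared clusters and 3 in Xist-positive cells or with at least 100 UMIs, and the 0 lower became 1 with 1 marker more, joint clustering or no minimum and 2 in Xist-positive cells. In stromal-like cells the 2 higher became 0 within shared clusters, where Kdr with 15 UMIs was under the minimum of 20, and 3 with no minimum, in Xist-positive cells (Vegfc) or without the highest cell (Flt1), and the 0 lower became 1 with no minimum. The log2 ratio of Nrp1 in dual-gate cells turned to -0.92 with 1 marker fewer. In progenitor-like cells joint clustering turned Kdr to -0.71, Vegfc to -0.80 and Tie1 to -0.10, and shared clusters turned Kdr to -0.64 and Vegfc to -0.58. Joint clustering and shared clusters leave out the 76 CKO cells of cluster 15 and the 51 WT and 5 CKO cells of cluster 5. Joint clustering also takes in 20 WT dual-gate cells of cluster 3. The part of each step, and the cause of the other changes, was not tested. Thinning to 6000 UMIs moved 67 of 80 shares, and adding 5 CPM moved 3 of 31 list medians, from 0.02 to -0.19 for VEGF ligands in progenitor-like cells, from 1.01 to 0.49 for neuropilin ligands and plexins in the stroma and from 1.67 to 0.84 for targets in the stroma. Dual-gate cells gave no value with 1 marker more, joint clustering or shared clusters, and endothelium-like and dual-gate cells none by sex, for want of 20 cells per library. No paired analysis was possible because the labels give no replicate numbers.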

Other observations

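Megakaryocyte-like cells, 6 in WT and 42 in CKO, carried part of the receptor set. In the 42 CKO cells Kdr stood at 103 CPM, Tie1 at 54.9 CPM (41.8 to 70.9) and Vegfc at 24.2 CPM (15.8 to 35.5), while Flt4 and Nrp1 had 0 UMIs and Nrp2 had 2. Kdr and Tie1 UMIs were seen together in 20 of these cells, and globins took 1.26% of their UMIs. The 6 WT cells held 7 Kdr and 4 Tie1 UMIs. These classes were under the 20 cells per library set for a comparison. The gates also left 51 WT and 5 CKO cells of cluster 5, named megakaryocyte-like in the clustering, in the progenitor-like class.

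In the stroma, 12 cells of each library formed cluster 11, where Flt1 stood at 70.2 CPM (41.6 to 111) in WT and 40.3 CPM (18.4 to 76.4) in CKO. This cluster held 18 of the 26 WT stromal Flt1 UMIs, of which 14 came from 1 cell, and the WT level without that cell was 17.0 CPM (4.64 to 43.6). Ccbe1, which aids the maturation of VEGF-C, had 2 WT and 56 CKO UMIs in stromal-like cells (22.6-fold, 5.97 to 191). Of all genes measured in that class, 6.59% were 2-fold higher in CKO. Ccbe1 was chosen after its values were seen and was not split by cluster. The cluster make-up given for Kdr and Tek applies to it.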
